A study of Mus musculus with 10 samples.

Results

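Long Polycomb domains are stretches of the mouse genome over which peaks of H3K27me3 follow each other with short gaps. They were built here by joining peaks of the untreated H3K27me3 list over gaps of at most 3000 bp and keeping joined regions of at least 20000 bp on chromosomes 1 to 19 and X. Of 44589 joined regions, 887 reached that length, and 5 of these were left out because they overlapped the Hox clusters. The remaining 882 domains held 27364 kb. They are described in all 10 peak lists of the study.

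The study profiled R1E cells, a line of mouse embryonic stem cells, by chromatin immunoprecipitation followed by sequencing (ChIP-seq), which recovers the DNA bound by a protein or wrapped around a modified histone. The cells were of a mixed C57BL/6X129Sv background, had been passaged fewer than 20 times and grew with serum and leukemia inhibitory factor, which keeps stem cells undifferentiated. They were either left untreated or given 0.5 uM Adriamycin (doxorubicin, a topoisomerase II poison that breaks DNA) for 8 h. The 5 targets were hnRNP L, RNA polymerase II (Pol II), H3K27me3, H3K4me3 and H3K79me2, with 1 library per target and condition, so no difference between conditions has a replicate check and no test of the treatment was made.

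H3K27me3 is the methyl mark written on histone H3 by Polycomb repressive complex 2 and read by Polycomb repressive complex 1, which together keep developmental genes silent. In embryonic stem cells many such genes also carry H3K4me3, the mark of promoters, a state called bivalent. H3K79me2 marks the first part of transcribed genes, Pol II is the enzyme that makes messenger RNA, and hnRNP L is an RNA-binding protein of the splicing machinery. The lists are on the mm9 build, of which no annotation was used here, so domains are given by position and not by gene.

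The lists held between 1022 and 97639 peaks, and their read depth is unknown. Pol II had 2414 untreated peaks at the top of the score scale (3100 and above) against 269 after Adriamycin, H3K27me3 754 against 268, H3K4me3 9209 against 9080 and H3K79me2 3605 against 3474. Over chromosomes 1 to 19 and X the covered length, meaning the bases under peaks, went from 101.0 to 75.3 Mb for H3K27me3 and from 77.4 to 54.7 Mb for Pol II. A difference in depth or enrichment between libraries and a difference between conditions cannot be told apart, and this touches every comparison between conditions that follows.

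Most domains were near the lower limit of length. Their median length was 26.3 kb, with quartiles of 22.7 and 34.3 kb and a maximum of 127.795 kb. There were 571 domains of 20 to 30 kb, 247 of 30 to 50 kb, 58 of 50 to 100 kb and 6 of at least 100 kb. The 2 domains just inside the length limit were chr11:94868864-94888863 (20000 bp) and chr10:79759925-79779929 (20005 bp). The 2 regions just outside it were chr2:180059352-180079332 (19981 bp) and chr2:173182303-173202280 (19978 bp). In the untreated list 86.4% and 84.8% of the bases of the inner pair were under H3K27me3 peaks, and 79.2% and 63.2% of the outer pair. After Adriamycin these values were 85.8%, 85.1%, 66.6% and 50.8%.

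Domains were unevenly spread over the chromosomes. Chromosomes 4, 2 and 11 held 91, 85 and 84 of them, and chromosome 11 had the highest density, 6.90 per 10 Mb. The X chromosome held 5, or 0.300 per 10 Mb, which was the lowest density of the 20 chromosomes. It also held the fewest of all joined regions, 546, where the others held 1219 (chromosome 19) to 3451 (chromosome 2). Neighbouring domains were common. With neighbours defined as lying within 100 kb of each other, 354 domains (40.1%) stood in 137 groups of at least 2. The largest group had 9 domains on chr8:123271096-123841638, followed by 7 on chr4:153155979-153604271 and 6 on chr7:150274318-150687820. Because such neighbours share their surroundings, domains are not independent of each other.

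In untreated cells a domain was a chain of peaks rather than 1 block. The 882 domains held 11783 untreated H3K27me3 peaks, with a median of 12 per domain (3 to 43), and these covered 70.8% of all domain bases. The share ranged from 27.4% to 96.9% in single domains, with a median of 70.6%. The widest single peak of a domain had a median width of 4.88 kb. These values were used to choose the domains and describe the choice.

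After Adriamycin the mark was found in all 882 domains, with thinner coverage. The Adriamycin list held 12078 peaks in the domains, slightly more than the untreated list, but they covered 57.7% of the bases (median 57.1%, range 4.17 to 97.3%). The covered length in Adriamycin divided by that in untreated cells was 0.815 for the domains together. Over single domains the median ratio was 0.812, the quartiles were 0.723 and 0.883, and the range was 0.0929 to 1.76. The covered length was lower in 859 domains (97.4%, where 96.4 percent of all joined regions were lower) and higher in 23 (2.61% against 1.64 percent). The widest peak was narrower in 755 domains (85.6%), with a median of 3.51 kb. In 88.3 percent of all joined regions it was narrower or gone, and among those with a peak in both lists in 80.4%, so this was not particular to the long domains.

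**Figure D1:**
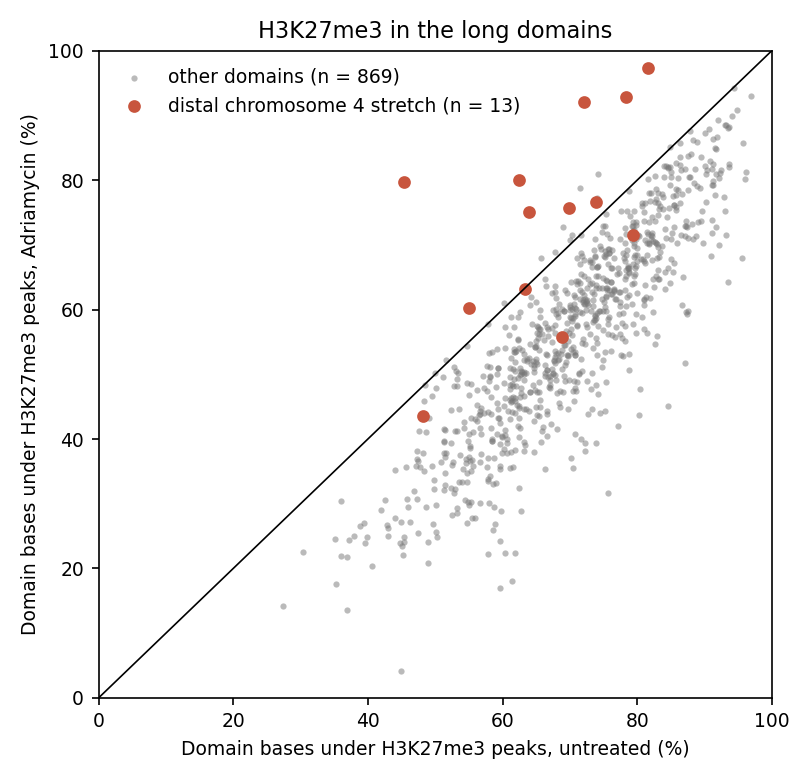
Share of each domain's bases under H3K27me3 peaks in untreated cells (x axis, %) and after Adriamycin (y axis, %), 1 point per domain, with the line of equality. Most of the 882 points lie below the line, and 9 of the 13 domains in the distal chromosome 4 stretch (larger red points) lie above it.

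A fall was built into the choice to some degree, since domains were picked for long coverage in the untreated list. When the same rule was applied to the Adriamycin list, it gave 624 domains, 522 of which (83.7%) overlapped an untreated domain of at least 20 kb. In those 624 domains the Adriamycin list still covered fewer bases than the untreated one, 67.0% against 72.1%, a ratio of 0.929. The covered length was lower after Adriamycin in 508 of the 624. The direction was therefore the same whichever list chose the domains, and the size was not.

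Many domains were broken up in the Adriamycin list. Joined by the same rule, Adriamycin peaks formed a domain of at least 20 kb at 512 of the 882 domains (58.0%, exact Clopper-Pearson 95% interval 54.7 to 61.3%), against 1.79 percent of all joined regions, most of which were short to begin with. Such intervals cover counting error only, here and below. A single Adriamycin region lay at 439 domains, 2 at 296, 3 at 113, 4 at 28, 5 at 4 and 6 at 2. At 443 domains (50.2%, against 4.2 percent of joined regions) the untreated domain thus matched 2 or more separate Adriamycin regions.

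The longest domains kept their mark over most of their length. The longest, chr7:86638786-86766580, spanned 127.795 kb, with 85.4% of its bases under 40 H3K27me3 peaks in untreated cells and 76.1% under 57 peaks after Adriamycin. In the Adriamycin list it was split into 2 regions, the longer of 66.6 kb. Next in length were chr11:103561878-103677678 (115.801 kb), with 82.7% and 70.3%, and chr4:115547043-115656631 (109.589 kb), with 84.4% and 74.2%. On chromosome 2 the domain chr2:33409239-33511459 (102.221 kb) was the most densely covered of the 10 longest, at 94.9% and 90.9%, and the only 1 of these 10 that stayed in 1 piece, of 100.638 kb. Of the 10 longest, 3 lay near each other on chromosome 5, at chr5:120213974-120308815, chr5:120655860-120745289 and chr5:120812060-120913621, with 67.5%, 74.9% and 72.0% covered in untreated cells and 60.0%, 56.9% and 61.2% after Adriamycin. The other 3 were chr17:85994485-86098170 (78.4% and 68.4%), chr7:150556312-150656011 (87.2% and 73.8%) and chr4:124911678-125004643 (75.6% and 57.8%).

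Longer regions kept a larger share of their covered length. The ratio was 0.857 for domains of at least 50 kb, 0.820 for those of 30 to 50 kb and 0.797 for those of 20 to 30 kb. In joined regions below the length limit it was 0.740 at 10 to 20 kb, 0.668 at 5 to 10 kb and 0.449 under 5 kb. The 5 domains at the Hox clusters stood at 0.849. A covered length at or below a ratio of 0.5 was found in 20 of the 882 domains (2.27%, interval 1.39 to 3.48%), against 53.1 percent of all joined regions. By class this share was 12.1% at 10 to 20 kb, 28.5% at 5 to 10 kb and 60.4% under 5 kb. The length class follows the rule, so this gradient is a description.

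Domains with dense untreated coverage also kept more of it. When domains were ranked by untreated coverage and cut into 4 sets of near equal size, the median ratio was 0.704 in the 221 with the lowest coverage (27.4 to 61.3% of bases), and it was 0.791, 0.837 and 0.876 in the following sets. The share that matched an Adriamycin domain of at least 20 kb went from 25.8% through 52.7% and 66.4% to 87.3%. Across the 882 domains Pearson's r with the ratio was 0.411 for untreated coverage, 0.455 for the highest untreated peak score and 0.152 for length. These measures share the untreated library with the ratio, so the values are descriptions.

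The weaker peaks of a domain were the ones without a match. An untreated H3K27me3 peak that overlapped no Adriamycin H3K27me3 peak was called unmatched, and this held for 21.2% of peaks in the domains, where 41.2 percent of the whole list was unmatched. At scores of 50 to 100 the share was 49.9% in the domains and 64.5% elsewhere. At scores of 200 to 500 it was 4.19% and 7.37%, and none of the 1561 domain peaks with a score of at least 1000 was unmatched (interval up to 0.236%). In the other direction 6.14% of Adriamycin peaks in the domains had no untreated partner, against 27 percent of the whole list. Since the domains were chosen from the untreated list, a low value is built into that share.

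Coverage thinned most at the domain ends. In untreated cells 84.4% of bases in the first kb inside the ends were under H3K27me3 peaks, because a domain begins and ends with a peak, and 75.04% of bases over 10 kb from both ends. After Adriamycin these values were 48.8% and 64.6%. In the first kb outside, which the rule leaves bare in untreated cells, 8.34% of bases were covered after Adriamycin. The rule places the untreated ends exactly at peak borders, so the contrast at the end itself is a description.

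**Figure D2:**
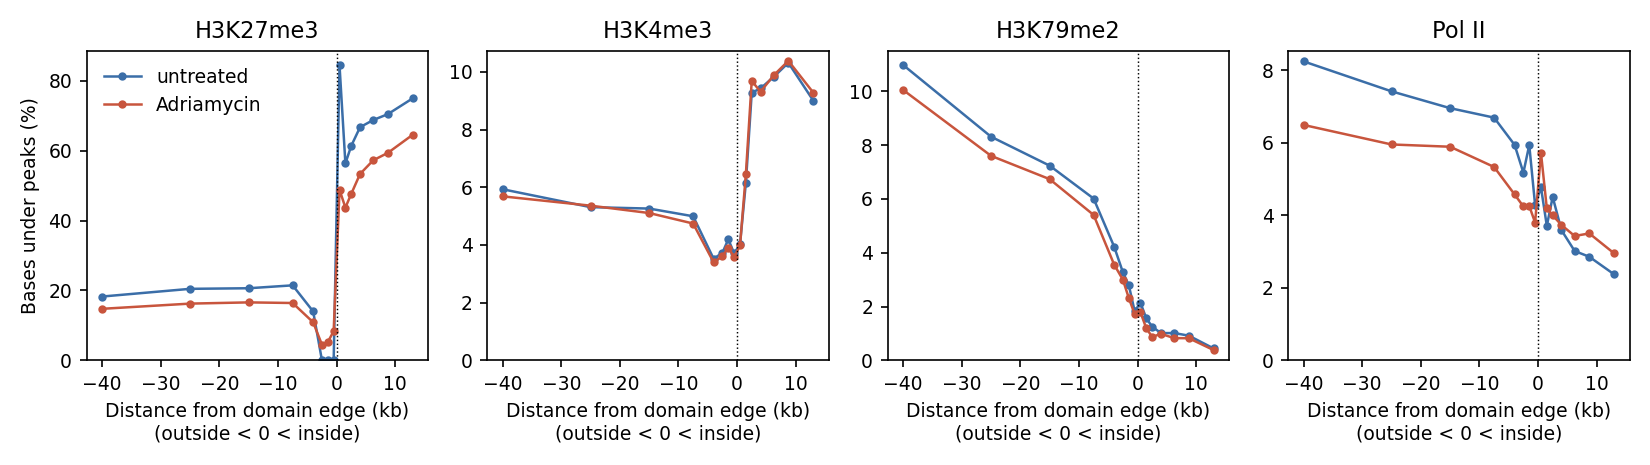
Share of bases under peaks (y axis, %, own scale in each panel) by distance from the domain ends (x axis, kb; negative outside, positive inside, last point over 10 kb from both ends), pooled over 882 domains, for untreated cells (blue) and Adriamycin (red). H3K4me3 is higher from about 2 kb inside the ends onwards than outside, H3K79me2 falls towards the inside, and Pol II is lower inside than 30 to 50 kb outside but higher after Adriamycin than before it deep inside.

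The 3 domains with the lowest H3K27me3 ratios had no H3K4me3. The lowest ratio, 0.0929, belonged to chr8:124673733-124708319, where 18 peaks covered 44.9% of 34.6 kb in untreated cells and 3 peaks covered 4.17% after Adriamycin. It held 2 Pol II peaks in each condition, 3.34% and 3.93% of its bases. The next were chr7:149801379-149822846, at 59.6% and 17.0% (ratio 0.285), and chr4:117197559-117218340, at 61.5% and 18.0% (ratio 0.293). No H3K4me3, H3K79me2 or hnRNP L peak was found in these 3 domains in either condition, and the latter 2 had no Pol II peak. Over all domains, the median ratio was 0.743 for the 105 with neither H3K4me3 nor Pol II in untreated cells, 0.739 for the 35 with Pol II alone of the 2, 0.811 for the 325 with H3K4me3 alone of the 2 and 0.832 for the 417 with both.

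The opposite pattern was concentrated on the distal part of chromosome 4. Of the 23 domains with a higher covered length after Adriamycin, 9 lay in a stretch of 13 neighbouring domains that runs from chr4:153155979-153197809 to chr4:154379399-154426094 and was set off after the values were seen. Thus 69.2% were higher there, against 14 of the other 869 (1.61%). H3K27me3 covered 295.9 kb of these 13 domains in untreated cells and 314.9 kb after Adriamycin, a ratio of 1.06, and the ratio was 0.811 in the other domains. The 3 highest ratios of all 882 domains were here. At chr4:153260345-153285533 the covered share was 45.4% in untreated cells and 79.8% after Adriamycin (ratio 1.76). At chr4:154108671-154134805 it was 62.5% and 80.0% (1.28), and at chr4:153996113-154018523 it was 72.1% and 92.0% (1.28).

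Pol II and H3K79me2 also covered more of the same stretch after Adriamycin. In its 13 domains Pol II covered 14.2 kb before and 34.2 kb after Adriamycin, H3K79me2 1.54 and 10.9 kb, and H3K4me3 14.2 and 18.1 kb. The Pol II rise lay mainly in chr4:153397443-153455694 (4.91 and 17.9 kb) and chr4:154379399-154426094 (0.441 and 7.98 kb). Several of the other domains had less Pol II after Adriamycin, such as chr4:153541792-153563174 (1.35 and 0 kb). H3K79me2 was found only in chr4:153397443-153455694 (0 and 6.46 kb) and chr4:153461292-153518043 (1.54 and 4.43 kb). Single domains differed in which marks rose. In chr4:153397443-153455694 Pol II went from 8.43 to 30.8% of bases and H3K79me2 from 0 to 11.1%, while H3K27me3 went from 68.8 to 55.8%. In the neighbouring chr4:153461292-153518043 H3K79me2 went from 2.72 to 7.80% and H3K4me3 from 4.43 to 10.2%, with H3K27me3 at 79.4 and 71.6%. In chr4:154379399-154426094 Pol II went from 0.944 to 17.1%, with H3K27me3 at 63.3 and 63.1%. Of the 3 domains with the highest H3K27me3 ratios, Pol II covered 4.63 and 4.20% of the first, 2.62 and 2.20% of the second, and 0 and 2.49% of the last, with no H3K79me2 in any of them. The H3K27me3 rise and the rise of the transcription marks thus fell mainly in different domains of the stretch. Over the window of 1500000 bp that holds them, the bases between domains included, H3K27me3 covered 35.6% of bases in untreated cells and 40.4% after Adriamycin, and Pol II 8.81 and 11.7%. H3K4me3 covered 5.38 and 5.83% of the window, and H3K79me2 5.61 and 6.29%. H3K4me3, H3K27me3, H3K79me2 and Pol II thus all covered more of the window after Adriamycin. Peak lists hold no read depth, so whether the number of DNA copies or the mapping of reads there differed between the cultures was not tested.

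**Figure D3:**
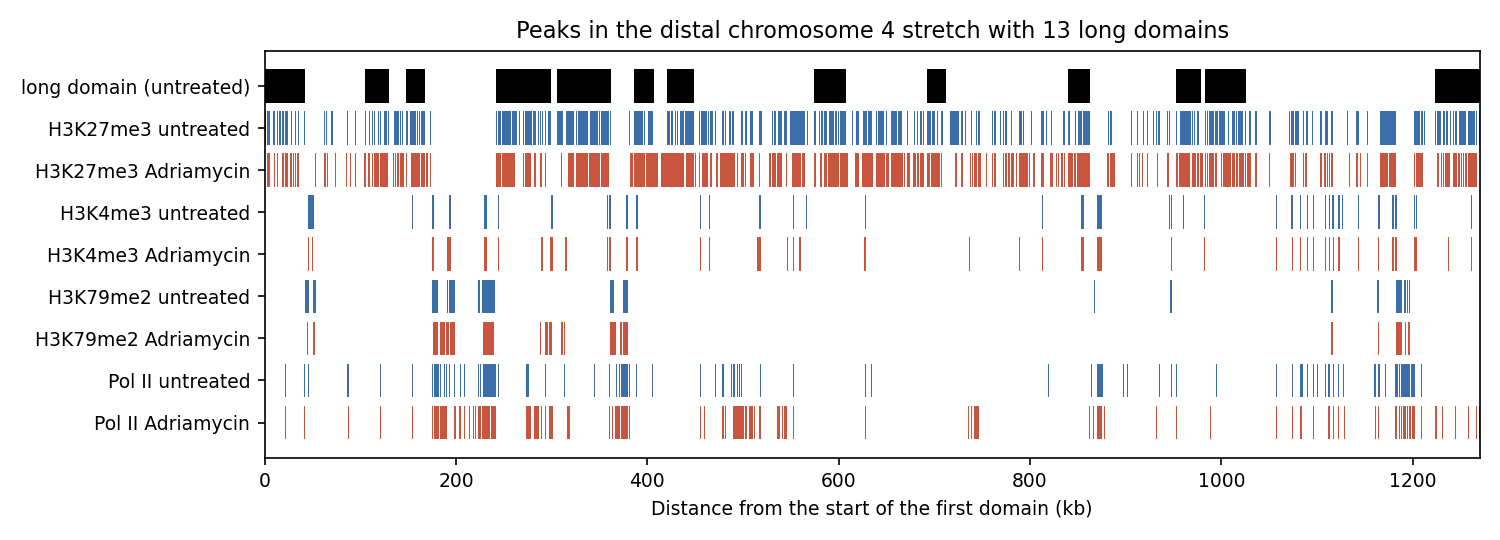
Map of the distal chromosome 4 stretch: the 13 long domains (black) and the peaks of 4 targets in untreated cells (blue) and after Adriamycin (red), each peak drawn at its width, against distance from the start of the first domain (x axis, kb). H3K27me3 covers more of 9 of the 13 domains after Adriamycin, and H3K79me2 peaks of the Adriamycin list lie in the 2 longest domains, which also have more Pol II.

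H3K4me3, the promoter mark, was present in most long domains in both conditions. At least 1 peak was found in 742 domains in untreated cells (84.1%, interval 81.5 to 86.5%, against 19.4 percent of all joined regions) and in 758 after Adriamycin (85.9%, 83.5 to 88.2%, against 20.3 percent). Both lists had a peak in 724 domains and neither in 106. The untreated list alone had one in 18 (1.12 percent of all joined regions) and the Adriamycin list alone in 34 (1.94 percent). A long region has more room for a peak than a short one, and by share of bases the long domains did not stand out from shorter regions. In untreated cells H3K4me3 covered 8.92% of bases in the long domains, 10.3% in regions of 10 to 20 kb, 11.2% at 5 to 10 kb and 7.47% under 5 kb, against 2.32% of all bases outside the long domains.

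The amount of H3K4me3 in the domains was nearly the same in the 2 lists. It covered 2439.9 kb before and 2479.9 kb after Adriamycin, a ratio of 1.02, against 0.912 outside the domains. Shorter H3K27me3 regions had nearly the same ratio, 1.01 at 10 to 20 kb, 1.00 at 5 to 10 kb and 1.01 under 5 kb, so the value was not particular to the long domains. The ratio in the domains was 0.998 with joining over gaps of at most 1000 bp, 0.991 with equal numbers of top-scoring peaks and 0.992 with domains defined in the Adriamycin list, so its direction depends on these settings. The covered length was higher after Adriamycin in 384 domains (43.5%, against 9.58 percent of joined regions) and lower in 392 (44.4%, against 11.4 percent). It differed by at least 1 kb upward in 74 domains (0.579 percent of joined regions) and downward in 60 (0.428 percent).

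H3K4me3 peaks lay mainly under H3K27me3 peaks and covered less of the outer 2 kb of the domains than of the rest. Of the H3K4me3 bases in the domains, 85.3% were under H3K27me3 in untreated cells, where 70.8% of all domain bases were, and 76.1% after Adriamycin, where 57.7% were. Of the 1842 untreated H3K4me3 peaks, 96.6% overlapped an H3K27me3 peak, and of the 2028 Adriamycin peaks, 88.4%. In untreated cells the share of bases under H3K4me3 was 4.02% in the first kb inside the ends and 9.28% at 2 to 3 kb. It was 10.3% at 7.5 to 10 kb and 9.01% over 10 kb from both ends. After Adriamycin these values were 3.98%, 9.69%, 10.4% and 9.28%. Few of the peaks were among the strongest of the list: 6.84% of untreated H3K4me3 peaks in the domains reached the top of the score scale, against 24.8% elsewhere.

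H3K4me3 was found more often where H3K27me3 was dense. Of the 221 domains with the lowest untreated H3K27me3 coverage, 62.0% had an untreated H3K4me3 peak, and in the following 3 sets 87.3%, 91.8% and 95.5% did. The share of bases under H3K4me3 went from 4.12% through 8.10% and 9.74% to 12.8% over the same sets. Across domains Pearson's r between the shares of bases under the 2 marks was 0.465 in untreated cells, over 882 domains that share their cells, as a description.

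The domain richest in H3K4me3 was chr19:46379089-46404184, with 40.9% of its bases under 6 peaks in untreated cells and 36.9% under 6 after Adriamycin. Its H3K27me3 coverage was 90.1% and 87.3%, and Pol II covered 24.9% and 25.8%. Next came chr4:151490625-151510687, with 39.0% and 32.0% under H3K4me3, 57.0% and 39.3% under Pol II and 91.5% and 85.0% under H3K27me3, and chr8:107778418-107810015, with 38.4% and 30.1% under H3K4me3. All 3 were densely covered by both marks in both lists, and all 3 had a lower H3K4me3 value after Adriamycin.

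The largest falls of H3K4me3 were at chr7:52419412-52449789 (36.2 to 22.4% of bases), chr19:45291850-45328931 (20.0 to 10.4%) and the longest domain, chr7:86638786-86766580 (11.4 to 8.86%). Pol II was lower after Adriamycin in these 3 domains, at 36.4 and 25.9%, 1.72 and 0%, and 2.96 and 1.06%. The largest rises were at chr6:84521938-84545229 (18.99 to 35.8%), chr11:103561878-103677678 (5.97 to 9.04%) and chr17:46578171-46633005 (14.2 to 20.6%). Pol II was higher in the first 2 of these, 0 and 33.6% and 0.326 and 2.22%, and lower in the last, 4.01 and 1.26%.

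New H3K4me3 peaks in the domains were mostly weak. Of the 2028 Adriamycin peaks 14.4% had no untreated partner, where 15.8 percent of the whole list had none, and of the 1842 untreated peaks 7.22% had no Adriamycin partner, where 14.5 percent of the list had none. At a score of at least 500 there were 2 unmatched Adriamycin peaks, and none of the 268 untreated peaks scoring 500 to 1000 or of the 523 scoring higher was unmatched. The 2 were chr4:153469405-153472174 (score 1083.07), in the distal chromosome 4 stretch, and chr11:82725621-82727364 (score 896.24). Both overlapped H3K79me2 after Adriamycin and not before, and Pol II in untreated cells, which the Adriamycin list had only at the peak on chromosome 11.

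H3K79me2, the mark of transcribed genes, was rare in the domains. At least 1 peak was found in 78 domains in untreated cells (8.84%, interval 7.05 to 10.9%, against 3.42 percent of all joined regions) and in 73 after Adriamycin (8.28%, 6.54 to 10.3%, against 3.11 percent). It covered 0.917% and 0.775% of domain bases, against 5.31% and 4.97% of all other bases. The share was 2.13% in the first kb inside the ends and 0.440% over 10 kb from both ends in untreated cells, and 10.98% at 30 to 50 kb outside. Flanks of 1 domain could hold part of another. Of the 78 domains with the mark in untreated cells, 77 also had H3K4me3 and 71 also had Pol II. Among all joined regions with H3K79me2, 78.3% had H3K4me3 and 76.3% had Pol II.

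The covered length of H3K79me2 in the domains went from 250.9 to 212.0 kb, a ratio of 0.845, against 0.937 outside them. Shorter H3K27me3 regions had similar ratios, 0.822 at 10 to 20 kb, 0.823 at 5 to 10 kb and 0.831 under 5 kb. It was lower in 60 domains (2.21 percent of all joined regions were) and higher in 27 (0.895 percent). The untreated list alone had the mark in 14 domains (0.689 percent) and the Adriamycin list alone in 9 (0.372 percent). A difference of at least 1 kb was found upward in 7 domains (0.126 percent) and downward in 24 (0.475 percent). Of the untreated H3K79me2 peaks in the domains 27.3% had no Adriamycin partner (19 percent of the whole list), and of the Adriamycin peaks 25.8% had no untreated one (18 percent). In domains of at least 50 kb the ratio was 1.37, on 7 domains with a peak in untreated cells and 9 after Adriamycin. Without the distal chromosome 4 stretch the ratio for all domains was 0.807.

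H3K79me2 covered much of the length of few domains. The highest share belonged to chr1:63296148-63318523, where H3K79me2 covered 79.3% of bases in untreated cells and 68.8% after Adriamycin, H3K27me3 58.5% and 39.7%, H3K4me3 8.20% and 4.62% and Pol II 3.25% and 2.90%. At chr14:58348063-58368711 H3K79me2 covered 39.5% and 41.2% and H3K27me3 69.0% and 72.8%. The largest fall was at chr11:95438954-95461007, from 42.3 to 12.03%, with Pol II at 25.3 and 7.88% and H3K4me3 at 21.5 and 18.5%. It was followed by chr9:107604037-107625519 (25.97 to 6.27%) and chr6:114212353-114239417 (21.9 to 8.99%). The largest rises were those of the 2 chromosome 4 domains given above, followed by chr12:114147336-114170750, from 36.9 to 46.8%. In that last domain Pol II went from 47.8 to 87.6% and H3K27me3 from 72.8 to 43.9%.

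Which list had Pol II in more domains depended on the peaks that were used. At least 1 peak was found in 452 domains in untreated cells (51.2%, interval 47.9 to 54.6%, against 14.6 percent of all joined regions) and in 478 after Adriamycin (54.2%, 50.8 to 57.5%, against 14.2 percent). With equal numbers of top-scoring peaks in the lists of each target the values were 42.4% in untreated cells and 53.6% after Adriamycin, of 793 domains. With only peaks of a score of at least 100 in all lists the order turned, to 34.7% in untreated cells and 28.4% after Adriamycin, of 458 domains. Both lists had a Pol II peak in 369 domains and neither in 321. The untreated list alone had one in 83 (4.73 percent of joined regions) and the Adriamycin list alone in 109 (4.33 percent).

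Pol II covered 844.5 kb of the domains before and 968.7 kb after Adriamycin, or 3.09% and 3.54% of their bases. Over all other bases it covered 2.93% and 2.06%. The ratio of Adriamycin to untreated was thus 1.15 in the domains and 0.703 outside them. It was 1.02 in joined H3K27me3 regions of 10 to 20 kb, 0.943 at 5 to 10 kb, 0.965 under 5 kb and 0.681 outside all joined regions, so each of these length classes had a higher ratio than the bases outside H3K27me3 regions, and the long domains had the highest. The 5 Hox domains stood at 0.627, on 4 domains with Pol II in untreated cells and 3 after Adriamycin. With domains defined in the Adriamycin list the ratio was 1.08. By share of bases in untreated cells the long domains were the poorest of these classes, with 3.09% under Pol II against 4.21% at 10 to 20 kb, 4.78% at 5 to 10 kb and 5.28% under 5 kb.

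**Figure D4:**
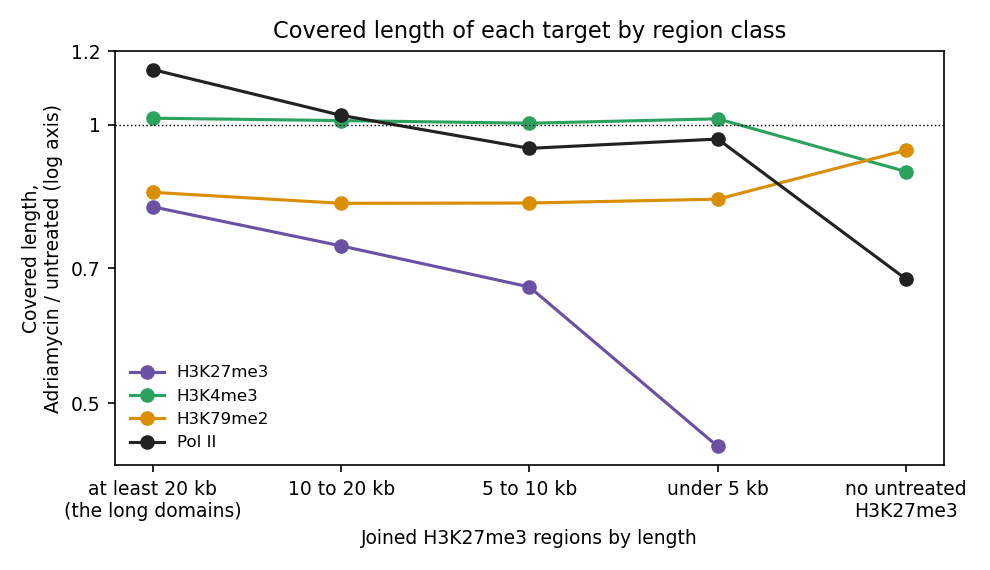
Covered length after Adriamycin divided by that in untreated cells (y axis, log scale) for 4 targets, in joined untreated H3K27me3 regions by length and outside all of them (x axis); the dotted line marks a ratio of 1. For Pol II the ratio goes from 1.15 in the long domains to 0.681 outside, and for H3K27me3 from 0.815 in the long domains to 0.449 in regions under 5 kb.

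The rise of the Pol II total rested largely on a small number of domains. Pol II covered length was higher after Adriamycin in 293 domains (33.2%, against 9.15 percent of joined regions) and lower in 267 (30.3%, against 9.5 percent). It was higher by at least 1 kb in 107 domains (12.1%, interval 10.05 to 14.5%, against 1.07 percent) and lower by at least 1 kb in 90 (10.2%, interval 8.29 to 12.4%, against 1.23 percent). Among the 10 domains with the largest change, 9 were rises. Without these 10 the totals were 804.5 kb and 842.9 kb, a ratio of 1.05. Without the chromosome 4 stretch the ratio was 1.13, with a minimum score of 100 it was 1.04, and with equal numbers of top-scoring Pol II peaks it was 1.42. It was above 1 on 15 of the 20 chromosomes, with the highest value, 1.84, on chromosome 16 and the lowest, 0.731, on chromosome 13.

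**Figure D5:**
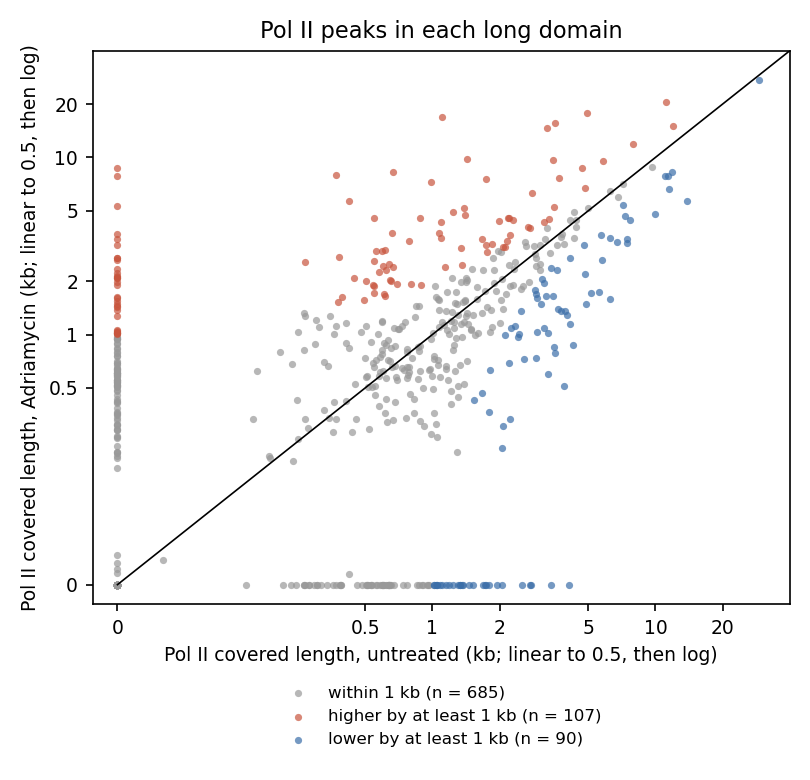
Bases under Pol II peaks in each of the 882 domains in untreated cells (x axis, kb) and after Adriamycin (y axis, kb), on axes that are linear up to 0.5 kb and logarithmic above it, with the line of equality. The 107 domains higher by at least 1 kb (red) and the 90 lower by at least 1 kb (blue) lie on both sides of the line, and the rises reach further from it than the falls.

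The largest rise was at chr5:35835556-35865886. In untreated cells it held 2 weak Pol II peaks of 552 bp each, with scores of 74.20 and 54.06, over 1.10 kb. After Adriamycin 15 peaks covered 16.9 kb, and the strongest had a score of 994.08. H3K27me3 covered 58.1% and 49.5% of the domain. No H3K79me2 peak was found in either condition, and the 1 H3K4me3 peak, found only after Adriamycin, reached into the domain from its right end (chr5:35865207-35868909, score 1572.73). After Adriamycin Pol II peaks covered 55.6% of this domain, and how many of those bases lay under H3K27me3 peaks was not measured.

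At chr8:124772535-124812334 Pol II went from 3 peaks over 3.54 kb to 13 peaks over 15.6 kb (8.90 to 39.3% of bases). H3K4me3 (18.5 and 20.6%) and H3K79me2 (14.1 and 14.2%) covered nearly the same share in both lists, and H3K27me3 went from 70.5 to 54.2%. The other of the 3 largest rises was chr4:153397443-153455694, given above. These 3 domains all had a lower H3K27me3 coverage after Adriamycin, with ratios of 0.852, 0.769 and 0.811, which is within the range of the other domains.

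In chr6:84521938-84545229, which had no Pol II peak in untreated cells, the Adriamycin list held 3, over 7.82 kb. The widest was 6323 bp (chr6:84523732-84530054, score 762.63) and lay 36171 bp from the nearest untreated Pol II peak. An H3K4me3 peak of 2398 bp (chr6:84523712-84526109, score 113.78) found only after Adriamycin began 20 bp from its left border. No H3K79me2 peak was found there in either condition.

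The largest falls were at chr8:107778418-107810015, from 44.0 to 18.0% of bases (12 peaks and 6), chr17:25509170-25535680, from 37.4 to 18.2% (10 and 5), and chr5:33764363-33829959, from 17.4 to 10.1% (7 and 8). H3K27me3 covered, in untreated cells and after Adriamycin, 85.0 and 80.4%, 66.2 and 58.0%, and 94.0 and 89.9% of these domains, where the medians of all domains were 70.6 and 57.1%. Each stayed in 1 piece of at least 20 kb in the Adriamycin H3K27me3 list.

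H3K4me3 tended to go with Pol II. In the 107 domains with at least 1 kb more Pol II, H3K4me3 covered 373.5 kb before and 436.4 kb after Adriamycin, and it was higher in 71 and lower in 30. In the 90 domains with at least 1 kb less, it covered 444.6 and 409.0 kb, and it was higher in 28 and lower in 59. In the 685 others it covered 1621.8 and 1634.5 kb, and it was higher in 285 and lower in 303. The median H3K27me3 ratio was 0.799, 0.851 and 0.808 in these sets. Pearson's r across the 882 domains was 0.326 between the differences of H3K4me3 and Pol II, 0.330 between those of H3K79me2 and Pol II, and -0.0834 between the Pol II difference and the H3K27me3 ratio, as descriptions of these libraries.

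Adriamycin Pol II peaks in the domains lacked a partner more often than those elsewhere, and untreated ones less often. Of the 1147 Adriamycin peaks in the domains 47.7% (interval 44.8 to 50.6%) had no untreated partner, where 26.1 percent of the whole list had none. At matched scores these values were 35.5% against 16.8% elsewhere at 100 to 200, 20.5% against 3.72% at 200 to 500, and 15.1% against 0.660% at 500 to 1000. In the other direction 42.5% (39.5 to 45.6%) of the 1058 untreated peaks had no Adriamycin partner, where 48 percent of the list had none, and at scores of 100 to 200 the values were 38.2% in the domains and 52.5% elsewhere. At a score of at least 500, 9 Adriamycin peaks in the domains had no untreated partner, and 2 untreated peaks had no Adriamycin one.

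The strongest unmatched Adriamycin peak was chr1:74832285-74836007 (3723 bp, score 1398.93), 440 bp from the nearest untreated Pol II peak. The 8 others had scores of 574.79 to 958.75. They lay in 6 domains, on chromosomes 2, 4, 5, 6, 7 and 14, with 2 in the chromosome 5 domain and 2 in the chromosome 14 domain, and 4 of the 8 overlapped an H3K4me3 peak after Adriamycin. None of the 9 overlapped H3K79me2 in either list, and all 9 overlapped H3K27me3 in both. For comparison, 82.8% of all Adriamycin Pol II peaks in the domains overlapped an Adriamycin H3K27me3 peak. H3K79me2 covered only 0.917% of domain bases in untreated cells and 0.775% after Adriamycin. The 2 unmatched untreated Pol II peaks were chr10:81028970-81030837 (score 588.43) and chr5:64550290-64552077 (score 561.32).

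The share of Pol II peaks in the domains that overlapped an H3K4me3 peak was 54.3% (51.3 to 57.4%) in untreated cells and 45.2% (42.3 to 48.2%) after Adriamycin. Elsewhere it was 34.8% and 37.0%. The part that the weaker Adriamycin Pol II list has in these values was not tested. Of the Pol II bases in the domains, 78.1% and 70.7% were under H3K27me3 peaks, where 70.8% and 57.7% of all domain bases were. Deep inside, over 10 kb from both ends, Pol II covered 2.37% of bases in untreated cells and 2.95% after Adriamycin, and at 30 to 50 kb outside 8.24% and 6.49%.

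Combining targets, 417 domains had both H3K4me3 and Pol II in untreated cells and 437 after Adriamycin (9.28 and 8.78 percent of all joined regions had both). H3K4me3 without Pol II was found in 325 and 321 domains (10.2 and 11.5 percent of joined regions) and Pol II without H3K4me3 in 35 and 41 (5.34 and 5.44 percent). Neither was found in 105 and 83 domains (75.2 and 74.3 percent). No target other than H3K27me3 was found in 104 domains in untreated cells and in 83 after Adriamycin (74.7 and 73.7 percent). Joined regions are mostly short, so these percentages also reflect their room for peaks.

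Some domains had Pol II over most of their bases without H3K4me3 or H3K79me2. The highest untreated share was at chr17:3006594-3039013, where Pol II covered 89.9% of bases in untreated cells and 84.8% after Adriamycin, under 19 and 15 peaks. H3K27me3 covered 69.9% and 49.2% of it, no H3K4me3 or H3K79me2 peak was found in either list, and 4 hnRNP L peaks (scores 67.24 to 120.51) were found after Adriamycin only. Another of the 3 highest, chr7:71213979-71235616, was alike in these respects. Pol II covered 55.5% and 69.3% of it and H3K27me3 58.0% and 30.1%. No H3K4me3 or H3K79me2 peak was found there, and 1 hnRNP L peak (score 72.01) appeared after Adriamycin. Whether the mapping of reads in these domains differs from that elsewhere was not tested, since peak lists hold no reads.

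hnRNP L had few peaks in the domains, as its lists are short. It had 4 peaks in 3 domains in untreated cells (0.340%, interval 0.0702 to 0.991%, against 0.294 percent of all joined regions) and 10 peaks in 7 domains after Adriamycin (0.794%, 0.320 to 1.63%, against 0.244 percent). It covered 0.0252% of domain bases in untreated cells and 0.0428% after Adriamycin, against 0.0457% and 0.0439% of all other bases. The 3 domains were the same in both lists. At chr10:57683440-57704037 a peak of 3773 bp (score 914.33) in untreated cells matched one of 3523 bp (score 547.34) after Adriamycin. At chr15:102912012-102980054, which lies just beyond a region left out as a Hox cluster, the scores were 186.15 and 145.86, and at chr8:106611150-106632920 the 2 untreated peaks scored 108.64 and 87.18 and the Adriamycin peak 132.17. Named after their values were seen, the 4 domains with hnRNP L only after Adriamycin were chr4:88912284-88953515, chr7:71213979-71235616, chr17:3006594-3039013 and chr17:35554671-35580766, with peak scores of at most 120.51. Over all joined regions 0.0807 percent had hnRNP L only after Adriamycin and 0.13 percent only in untreated cells, which held for 0 domains. None of the hnRNP L peaks in the domains overlapped an H3K4me3 peak, and elsewhere 4.54% of untreated and 4.26% of Adriamycin ones did. With so few peaks in the domains, these shares cannot be told apart. In the whole lists 40.5 percent of untreated and 33.9 percent of Adriamycin peaks had no partner, and in the domains 1 of 4 and 7 of 10.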

How the data were processed

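ChIP-seq peak lists of 5 targets in untreated and Adriamycin-treated R1E cells were used as the authors deposited them, 1 list per library. CASAVA 1.8.2, MACS 1.4.1 and the build mm9 are named, per the submitters' processing notes. The deposited score of a peak is the authors' value, in MACS of this generation 10 times the negative log10 of its p-value, so the lowest score of 50 corresponds to a p of 1e-05. It ranked and filtered peaks within a list. The sources used here do not give input, duplicate handling or depth. Coordinates are 1-based.

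Peaks overlapping a domain by at least 1 bp were counted, and covered length is the union of their bases inside it. Shares carry exact Clopper-Pearson 95% intervals over domains or peaks, which cover counting error only. Background percentages are the same share over all 44589 joined regions, or over a whole list for unmatched peaks. Correlations are Pearson's r.

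Domains named are the 10 longest, the 3 extremes of H3K27me3 ratio and of change in Pol II, H3K4me3 and H3K79me2, the 3 highest untreated shares of these, those with hnRNP L in both lists and those at the length limit. Members, lists and alternatives were chosen with earlier results of these data known. Gene families, pluripotency markers and sequences were planned for an mm9 annotation, which was not used here. Joining and measuring were tested on simulated data. Versions were matplotlib 3.10.9, SciPy 1.17.1, pandas 2.3.3, numpy 2.4.6 and Python 3.11.15.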

Additional observations from a re-analysis of the deposited data

How the results depend on the processing

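The number of domains, the shares of domains that kept 20 kb, fell to a H3K27me3 ratio of 0.5 or less or held each other target, and the 4 ratios of covered length were recomputed with joining gaps of 1000 and 5000 bp, a length of 30000 bp, a minimum score of 100, lists cut to equal numbers of top-scoring peaks, 50 percent of a peak inside, chromosomes 1 to 19 and domains defined in the Adriamycin list. No other value was recomputed. Of 150 recomputed values 118 were called the same, 29 moved and 3 reversed. Same meant within the interval for a share, and the same direction and a near value for a ratio. For the number of domains only a near value was needed, and 624 against 882 still passed. The 150 include the values without the 10 largest Pol II changes and without the chromosome 4 stretch, which were all among the 118. The number of domains was 194 and 1710 with the 2 gaps, 311 at 30000 bp and 458 at scores of at least 100. The share with an Adriamycin domain of at least 20 kb was 51.5% (gap of 1000 bp), 78.5% (30000 bp) and 62.2% (equal numbers). Of the Adriamycin-defined domains, 83.7% overlapped an untreated domain of at least 20 kb. The share at a H3K27me3 ratio of 0.5 or less was 0%, 7.89%, 0.643% and 0.321% with gaps of 1000 and 5000 bp, 30000 bp and Adriamycin-defined domains, where the untreated list takes the place of the Adriamycin one. Domains with H3K4me3 were 91.2%, 80.2% and 88.4% in untreated cells and 91.2%, 82.3% and 90.7% after Adriamycin with gaps of 1000 and 5000 bp and at 30000 bp. Domains with H3K79me2 were 6.70% and 5.67% (gap of 1000 bp) and 6.99% and 5.90% (scores of at least 100). Domains with Pol II were 42.3% and 44.8% (gap of 1000 bp), 57.6% and 62.7% (30000 bp), 34.7% and 28.4% (scores of at least 100), and 42.4% and 53.6% (equal numbers). The H3K4me3 ratio reversed to 0.998 (gap of 1000 bp), 0.991 (equal numbers) and 0.992 (Adriamycin-defined). The cause was not tested. The ratios of covered length, and all values without the 10 largest Pol II changes and without the chromosome 4 stretch, were added after seeing the data. The Pol II ratio stayed between 1.04 and 1.42 and that of H3K27me3 between 0.783 and 0.929. No paired analysis was possible because each target had 1 library per condition, and for the same reason no library could be left out. Depth is unknown, so a missing peak does not show that a target was absent.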
